A study of Capra hircus with 2 samples.

Results

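miR-1, miR-206 and miR-133a are the microRNAs of striated muscle, and here they were read in small RNA of the dairy goat (Capra hircus) mammary gland, as 3 of 128 mature miRNAs followed in these libraries. Their members were clean tags of at least 18 nt that began at base 1 of the conserved mature sequence, or lacked 1 to 2 bases there, matched it exactly up to base 18 and ended at most 3 bases beyond it. No tag fitted 2 of the 3 miRNAs. The early lactation library came from glands on day 10 after parturition. The early involution library came from glands of late lactation, day 218 after parturition, taken on day 5 after weaning was forced. Each was 1 library from an equal pool of RNA from 5 goats, so the spread between animals is unknown and the stages could not be tested against each other. Weaning and time since parturition cannot be told apart. No genotype, breed or animal age is given in the labels.

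The lactation library held 18031615 clean tags and the involution library 7385833, a 2.44-fold difference in depth. The 128 miRNAs took 84.2% of lactation tags and 78.3% of involution tags. Beside the tissue label, 8 miRNAs of mammary epithelium were read, all of which had tags. This could hardly fail, since each reference was itself a deposited tag, and miR-122 of liver and miR-9 of neurons had tags too. The presence of tags is thus no check of the tissue. The summed level of the 8 was 78168 tags per 1000000 clean tags (RPM) in lactation and 52303 RPM in involution. The largest part was miR-148a, at 57078.5 RPM in lactation and 25634.3 RPM in involution. miR-200c and miR-429 were also lower in involution, while miR-200a, miR-200b, miR-141, miR-205 and miR-375 were higher.

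In textbook terms, miR-1 and miR-133a are made from shared primary transcripts that the muscle factors SRF, MEF2 and MyoD switch on in heart and skeletal muscle. miR-1 promotes muscle differentiation, among others by repressing HDAC4, while miR-133a restrains it and represses SRF. miR-206 is a close relative of miR-1, is largely restricted to skeletal muscle and shares its transcript with miR-133b. The mammary gland has no striated fibres of its own, but its myoepithelial cells and vessel walls are contractile. In RefSeq's gene list for the goat (ARS1.2), MIR133A and MIR1 are neighbours with no gene between them, as are MIR133B and MIR206, and MIR499 lies inside the myosin gene MYH7B.

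The mature sequences below are deposited tags, in DNA letters, 5′ to 3′, with the seed (bases 2 to 8, which pair with target mRNAs) in capitals. A key written from general knowledge fixed their seed and last 4 bases, so their 3′ ends need not be the most abundant ones. The sequences are shown because the seed groups the 3 miRNAs.
miR-1: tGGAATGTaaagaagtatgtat
miR-206: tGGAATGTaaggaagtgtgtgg
miR-133a: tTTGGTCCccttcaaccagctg
miR-1 and miR-206 had the same seed and differed at 4 of 22 bases, written as the miR-1 base, the position from the 5′ end and the miR-206 base: A11G, A17G, A21G and T22G. The first and second of these lie within the 18 matched bases, so the rule keeps the pair apart. miR-133a had another seed.

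The 3 miRNAs differed widely in level, and miR-133a went the other way from its genomic partner. In involution miR-133a was 5.56 times its lactation level (95% interval 4.01 to 7.81), whereas miR-1 was 1.29-fold lower (1.26 to 1.32) and miR-206 was 1.56-fold lower (1.26 to 1.96). The intervals, here and below, cover counting error only, since reads without molecular identifiers may be PCR copies and each stage had 1 library. A call of higher or lower required 10 RPM in a library, a ratio of at least 2-fold and an interval that excluded equality. Of the 3 miRNAs only miR-133a met this, as higher, beside 38.8% called higher and 3.45% called lower among all 116 miRNAs at that level. It reached 10 RPM only in involution, so it could not have been called lower.

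miR-1 had 34038 tags in lactation, or 1888 RPM (1868 to 1908), and 10803 in involution, or 1463 RPM (1435 to 1491). It was the 28th most abundant of the 128 miRNAs in lactation and the 38th in involution. The involution level was the lower, with counting intervals that did not overlap, and at a log2 ratio of -0.37 it stayed short of 2-fold. In bulk tissue, fewer cells that make a miRNA and less of it per cell cannot be told apart.

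miR-206 had 393 tags in lactation, or 21.8 RPM (19.7 to 24.1), and 103 in involution, or 13.9 RPM (11.4 to 16.9). Its log2 ratio was -0.64, again with intervals that did not overlap. With median-of-ratios scaling, which is described under the processing, miR-206 became 2.32-fold lower and passed the 2-fold limit. The ratio of miR-206 relative to that of miR-1 was 0.826 (exact interval 0.657 to 1.03), an interval that includes equal change of the pair.

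miR-133a had 54 tags in lactation, or 2.99 RPM (2.25 to 3.91), and 123 in involution, or 16.7 RPM (13.8 to 19.9). The lactation level was below 10 RPM, and only the involution library took it past that limit. Its log2 ratio was 2.48. Set against miR-1 in the same libraries, miR-133a was 7.18 times higher in involution than in lactation (5.17 to 10.1), a comparison that does not depend on how the libraries are scaled.

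Within each library the order of the members can be read without any scaling. In lactation there were 86.6 miR-1 tags for each miR-206 tag (78.4 to 95.9) and 630 for each miR-133a tag (483 to 839). In involution there were 105 (86.4 to 129) and 87.8 (73.5 to 106). miR-206 outnumbered miR-133a by 7.28 to 1 in lactation (5.47 to 9.86), while in involution the ratio was 0.837 (0.638 to 1.097) and their order was not resolved. How readily each sequence is ligated and amplified also enters a ratio between different miRNAs, and that was not measured.

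**Figure D1:**
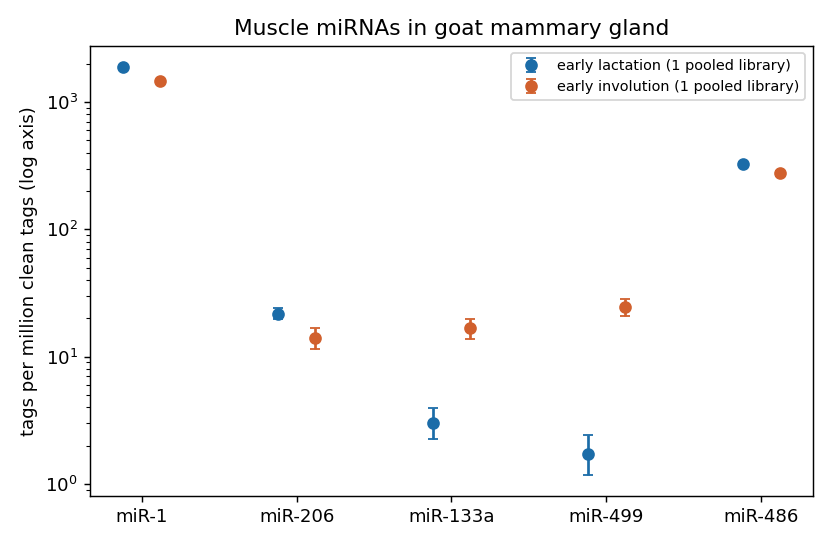
Level of the 3 miRNAs and of miR-499 and miR-486 in RPM (log axis) for each library; points are the 1 pooled library per stage and bars the 95% Poisson intervals. miR-1 stands far above the others in both libraries, and miR-133a and miR-499 are the ones that lie higher in involution.

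Of 116 miRNAs that reached 10 RPM in either library, 42.2% were called, 38.8% higher in involution and 3.45% lower, so that 1 higher call among 3 members is near this background. The median log2 ratio of the 116 was 0.57, a 1.49-fold higher level in involution. miR-1 and miR-206 lay below that median, with 92 and 101 of the miRNAs at higher ratios than theirs, and miR-133a lay above it, with 21 at higher ratios. Scaling by median-of-ratios shifted that median by -0.57 and called 50.9% of miRNAs, 31.9% as higher and 19% as lower. TMM scaling shifted it by -0.34 and called 45.7%, 33.6% as higher and 12.1% as lower. Scaling to the miRNA tags alone shifted it by 0.11. Under median-of-ratios and TMM scaling miR-133a remained called higher, at 3.74 and 4.41 times, and miR-1 was 1.92-fold and 1.63-fold lower.

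**Figure D2:**
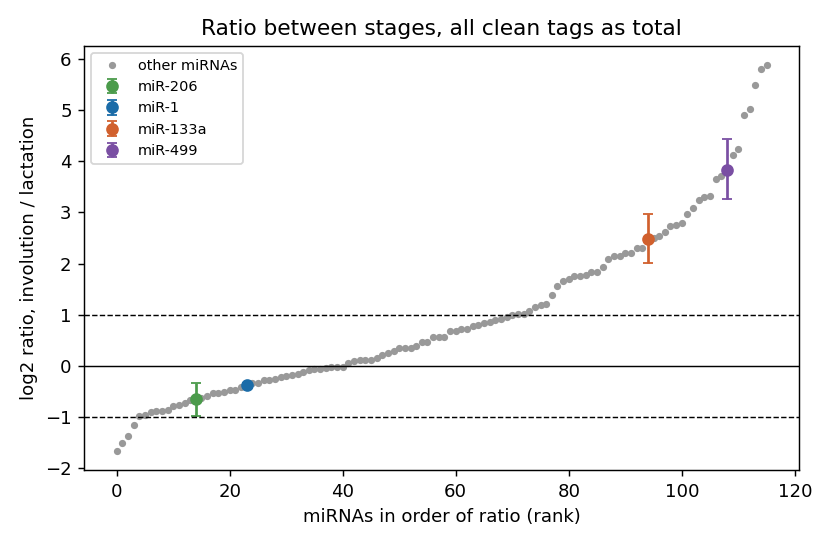
Log2 ratio of involution to lactation for the 116 miRNAs with at least 10 RPM in a library, in order of ratio; bars on the named miRNAs are 95% counting intervals and dashed lines mark 2-fold. miR-206 and miR-1 lie below equality at -0.64 and -0.37, and miR-133a and miR-499 lie above 2-fold at 2.48 and 3.83.

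The other miRNAs of striated muscle were sparse, apart from miR-486. miR-499, which is encoded in a myosin gene and marks slow muscle and heart, had 31 tags in lactation, or 1.72 RPM (1.17 to 2.44), and 180 in involution, or 24.4 RPM (20.9 to 28.2). It was therefore 14.2 times higher in involution (9.64 to 21.5), in the same direction as miR-133a. The heart miRNA miR-208a had 0 tags in lactation and 2 in involution. No tag with the sequence key of miR-208b was read. A count of 0 was given a limit of 3 tags, here 0.166 RPM in lactation and 0.406 RPM in involution. The 22 nt mature form of miR-133b was not read either, but other tags of miR-133b would count among those of miR-133a, since the first 18 bases do not separate the pair. miR-486, found in muscle and in red cells, stood at 328 RPM in lactation. In involution it stood at 275 RPM, which is 1.19-fold lower (1.13 to 1.26).

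Of the 7 listed miRNAs of skeletal and heart muscle, 5 had tags, 4 reached 10 RPM in a library, and 2 of these, miR-133a and miR-499, were called higher and none lower. Both reached that level only in involution, so they could not have been called lower, and the count is no evidence of a direction of the list. The summed level of the list was 1914 RPM in lactation and 1518 in involution, nearly all of it miR-1. The other arms of the precursors were close to absent: the tag of miR-1-5p was seen 0 times in lactation and 1 time in involution, and miR-133a-5p had 3 tags and 1 tag.

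Markers of other cell types differed between these libraries as well, beside 38.8% called higher and 3.45% called lower among all 116 miRNAs. The counts of each list were not tested against these shares. Both miRNAs of the erythroid list, miR-451 and miR-144, were called higher, with a summed level of 599 RPM in lactation and 2810 in involution. By contrast miR-486, also found in red cells but not in this list, was 1.19-fold lower in involution (1.13 to 1.26). Since miR-144 reached 10 RPM only in involution, it could not have been called lower. Of 5 leukocyte miRNAs 4 were called higher, with miR-155 at a log2 ratio of -0.79, and the sum was 1429 and 1577. Of 4 smooth muscle and stromal miRNAs 2 were called higher, miR-145 and miR-214, while miR-143, at 317935 and 329528 RPM, had a log2 ratio of 0.05. Of the 8 epithelial miRNAs 3 were called higher and 1, miR-148a, lower. The liver miRNA miR-122 was at 1.11 and 5.55 RPM, and of the neuronal pair miR-9 was at 13.5 and 66.3 while miR-124 had no reference tag. The part of cell composition in the ratios of the muscle miRNAs was not tested.

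The miRNAs nearest to each member in log2 ratio, over these 2 libraries and among the 116, were miR-126-3p at -0.33, miR-196a at -0.33 and miR-200c at -0.42 for miR-1. For miR-206 they were miR-182 at -0.63, miR-152 at -0.67 and miR-10b at -0.59. For miR-133a they were miR-205 at 2.50, miR-150 at 2.54 and miR-15a at 2.61. With only 2 libraries this likeness is a single ratio each.

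Most miR-1 tags did not end as the conserved mature sequence does. No goat genome was used here, so whether the goat's own MIR1 gene has cytosine or thymine at base 22 was not tested. The following forms are shown because they carry most of the miR-1 count. Capitals mark the bases from position 22 on.
miR-1 with cytosine at base 22: tggaatgtaaagaagtatgtaC
miR-1 with thymine at base 22: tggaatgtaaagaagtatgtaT
miR-1 with cytosine and 1 base more: tggaatgtaaagaagtatgtaCC
miR-1 ending at base 20: tggaatgtaaagaagtatgt
The form with cytosine was the most abundant in both libraries, with 17742 tags in lactation, 52.1% of all miR-1, and 4740 in involution, 43.9%. The conserved form with thymine had 7116 tags, or 20.9% (20.5 to 21.3%), and 2549 tags, or 23.6% (22.8 to 24.4%).

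Among all miR-1 tags that reached base 22, cytosine stood there in 73.1% in lactation (72.6 to 73.6%) and 68.3% in involution (67.3 to 69.2%), and thymine in 25.9% (25.4 to 26.4%) and 29.9% (28.9 to 30.8%). Adenine took 0.831% and 1.53%, and guanine 0.136% and 0.325%. The base after it went with it. In lactation, 23 nt tags with cytosine at base 22 carried a second cytosine in 72.3% of 3629 tags (70.8 to 73.7%), whereas those with thymine carried a second thymine in 72.5% of 462 (68.2 to 76.5%). In involution these shares were 76.1% of 1328 (73.7 to 78.4%) and 67.6% of 108 (57.9 to 76.3%).

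Cytosine in that place was rare in other miRNAs. For 20 others whose reference has thymine at base 22 and which had at least 1000 tags of 22 nt in both libraries, the median share of cytosine was 0.0583% in lactation and 0.0669% in involution. The highest of these was miR-22, at 11.3% and 2.49%, beside 70.7% and 63.8% for 22 nt tags of miR-1. In miR-206, whose reference has guanine at base 22, cytosine stood there in 4 of 368 tags in lactation and 0 of 77 in involution.

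**Figure D3:**
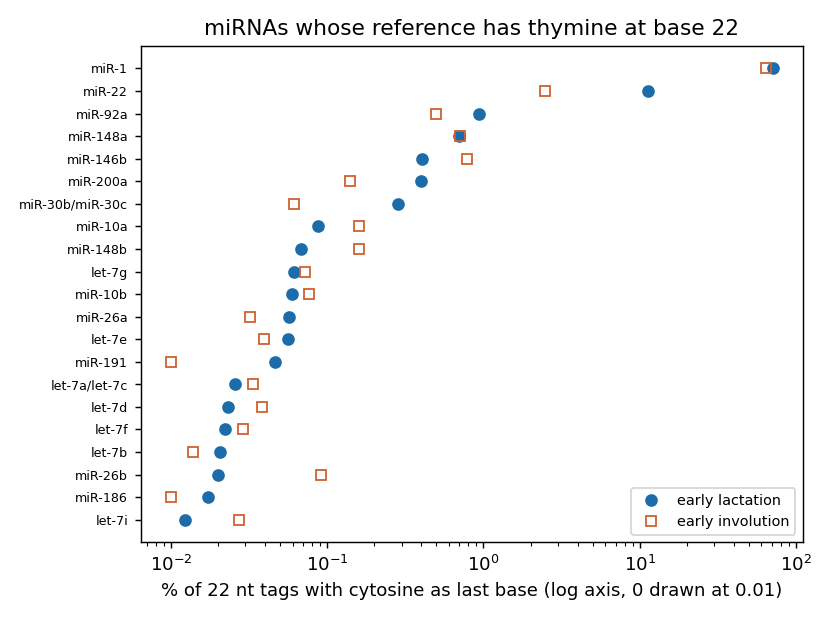
Share of 22 nt tags, identical to the reference up to base 21, that end in cytosine, for miR-1 and 20 miRNAs whose reference has thymine at base 22 (log axis, with a share of 0 drawn at 0.01; circles lactation, squares involution, 1 library each). miR-1 stands at 70.7% and 63.8%, and the next, miR-22, at 11.3% and 2.49%.

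The forms of miR-1 did not share 1 ratio between the stages. Tags with cytosine at base 22 were at 1191 RPM in lactation and 825 in involution, 1.44-fold lower in involution. Tags with thymine there were at 422 and 361 RPM, 1.17-fold lower, and tags that ended before base 22 were at 259 and 254 RPM, a ratio of 0.981 (0.929 to 1.04). The rare tags with adenine or guanine there went the other way. Those with adenine were at 13.5 and 18.5 RPM, 1.37 times higher in involution (1.10 to 1.70), and those with guanine at 2.22 and 3.93 RPM, 1.77 times higher (1.06 to 2.93). Counted by the conserved sequence alone, miR-1 was 1.14-fold lower in involution in place of 1.29-fold.

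The 3′ end of miR-1 lay most often at base 22, in 74.1% of tags in lactation (73.6 to 74.5%) and 69.1% in involution (68.2 to 70.0%). Shorter tags made up 13.7% (13.3 to 14.1%) and 17.3% (16.6 to 18.1%), chiefly by ending at base 20, and longer tags 12.2% and 13.5%. The share of shorter tags was 3.64 percentage points higher in involution. Over 79 other miRNAs, each at 1000 tags or more in lactation and in involution alike, the median of that difference was -0.23 points, and 23 of them had a difference at least as large as that of miR-1. At the 5′ end miR-1 was nearly uniform, with 99.8% of lactation tags and 99.9% of involution tags starting at base 1.

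**Figure D4:**
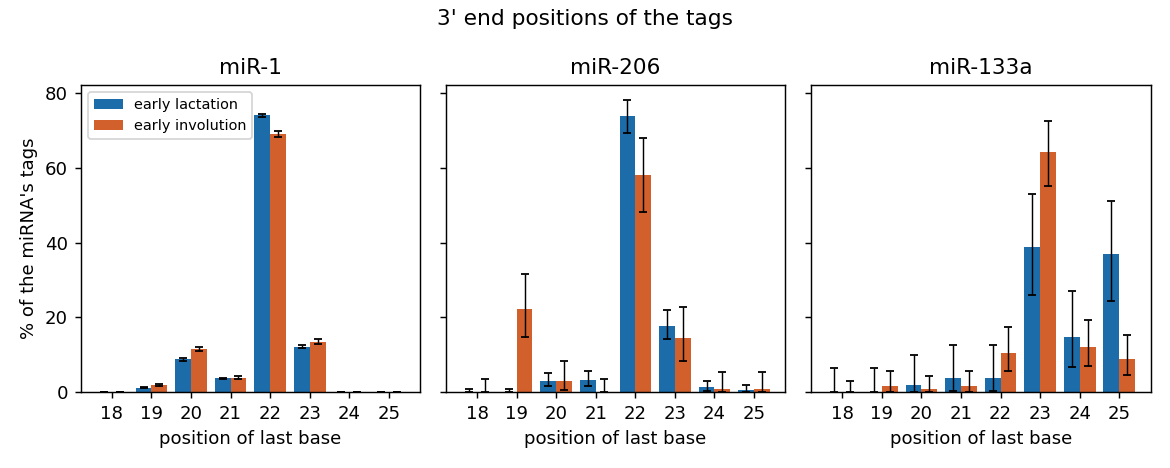
Position of the last base of the tags of miR-1, miR-206 and miR-133a as a share of the tags of each miRNA; bars are the 1 library per stage and error bars 95% Clopper-Pearson intervals. miR-1 ends mostly at base 22 in both libraries, miR-206 has a group at base 19 in involution only among these libraries, and miR-133a ends mostly at base 23 in involution, at 64.2%, and about equally often at bases 23 and 25 in lactation, at 38.9% and 37.0%.

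miR-206 kept its start and varied at its end. All 393 lactation and all 103 involution tags began at base 1, and 74.0% in lactation and 58.3% in involution ended at base 22. A form that stops at base 19 is shown because it was read in 1 of the libraries alone.
miR-206 ending at base 19: tggaatgtaaggaagtgtg
It had 0 of 393 tags in lactation, which at 3 tags allows a share of up to 0.763%, and 23 of 103 in involution, or 22.3% (14.7 to 31.6%). Its level in involution was 3.11 RPM. Without it and the other end forms, tags identical to the mature sequence were 276 and 57, at 15.3 and 7.72 RPM, 1.98-fold lower in involution.

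miR-133a mostly began 1 base late, which moves its seed by 1 base. The forms below are its most abundant tag over both libraries together, with the shifted seed in capitals, and the longest common form in lactation.
miR-133a starting at base 2: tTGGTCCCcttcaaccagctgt
miR-133a starting at base 2 and ending at base 25: ttggtccccttcaaccagctgtag
A start at base 2 was found in 39 of 54 tags in lactation, or 72.2% (58.4 to 83.5%), and in 68 of 123 in involution, or 55.3% (46.1 to 64.3%). The intervals of the libraries overlap. In 113 other miRNAs, each at 50 tags or more in lactation and in involution, the median share of tags that lacked 1 or 2 bases at the start was 0.386% in lactation and 0.717% in involution. miR-133a stood at 74.1% and 58.5%, and 0 and 1 of the 113 reached that share. Tags that started at base 1 numbered 14 and 51, which put that form at 8.89 times its lactation level (4.85 to 17.4), though below 10 RPM.

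At the 3′ end 90.7% of miR-133a tags in lactation and 85.4% in involution were longer than the reference. The most frequent end was base 23, at 38.9% (25.9 to 53.1%) and 64.2% (55.1 to 72.7%). An end at base 25 was found in 20 of 54 tags in lactation, 37.0% (24.3 to 51.3%), and in 11 of 123 in involution, 8.94% (4.55 to 15.4%). The single form printed above accounts for 15 of those 20 lactation tags and had 1 tag in involution. Base 22 is the one that tells miR-133a from miR-133b. Of tags that reached this base 51 of 51 in lactation had the guanine of miR-133a, which at 3 tags allows up to 5.88% with adenine, and 117 of 118 in involution, the exception being 1 tag with adenine, the base that marks miR-133b. Another 3 and 5 tags ended before base 22 and fit either miRNA.

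Beyond the assigned tags, tags that departed from miR-1 at a single base were seen in both libraries. The most frequent such change in involution was A17G. Whether the genome of any of these goats encodes guanine there was not tested. Tags that matched miR-1 over bases 1 to 18 but for A17G numbered 496 in involution and 7 in lactation, or 67.2 and 0.388 RPM, a ratio of 173 (83.3 to 433). Its most abundant tag is shown with the changed base in capitals.
miR-1 with A17G: tggaatgtaaagaagtGtgtat
As a share of A17G and exact tags together, this was 4.39% in involution (4.02 to 4.79%) and 0.0206% in lactation. The changed base is also one of those that set miR-206 apart from miR-1, and the tags are 1 change from either over those 18 bases. Of the A17G tags that reached base 21 in involution, 475 of 478 had bases 19 to 21 of miR-1 and 0 of 478 those of miR-206.

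The A17G tags also differed from the exact tags at their end. In involution, thymine stood at base 22 in 64.8% of 458 A17G tags (60.3 to 69.2%) and cytosine in 34.3% (29.9 to 38.8%), the reverse of the order in exact miR-1 tags. In lactation 5 of the 7 A17G tags had cytosine there and 2 had thymine. Of the other single changes of miR-1, A14C was ahead of A17G in lactation and behind it in involution. It had 183 tags in lactation, 0.536% (0.461 to 0.619%), and 1 in involution. A13C, at 0.214% and 0.342%, and A11C, at 0.132% and 0.406%, were higher in involution, the direction of A17G. The counting intervals of the libraries overlap for A13C and not for A11C. Over 385 adenines in the first 18 bases of 79 miRNAs, again each at 1000 tags or more, the median share of adenine-to-guanine changes was 0.0206% in lactation and 0.0196% in involution. Only 4 of the 385 reached 1% in involution. A17G of miR-1 ranked second there, after A1G of miR-99a at 5.69%, which was at 9.39% in lactation. In lactation A17G ranked 194th of the 385. The other two at or above 1% were A5G of miR-200b, at 2.22% and 1.65% in lactation and involution, and A16G of miR-378, at 1.46% and 1.40%.

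**Figure D5:**
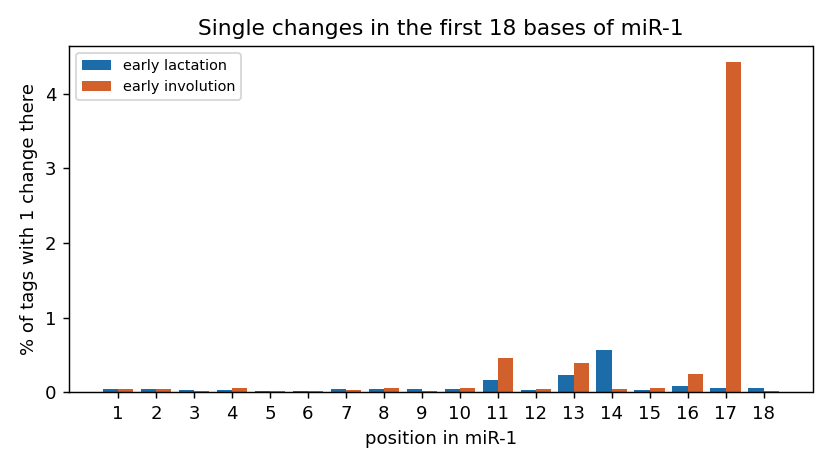
Share of miR-1 tags with a single changed base at each of the first 18 positions, out of changed and exact tags that start at base 1, for the 1 library per stage. Position 17 stands out in involution at 4.42%, against 0.0588% in lactation, and position 14 is the highest in lactation at 0.568%.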

How the data were processed

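The authors deposited, for each library, raw counts of reads per distinct clean tag, with the tag's length as another column. Per the labels' protocols, RNA of 18 to 30 nt was selected, ligated to adaptors, amplified and sequenced. The authors' notes deposited with the files state that reads of low quality, 5′ adaptor contaminants, polyA tags and those shorter than 18 nt were dropped. Tools and versions: not given in the sources used here. The files name no genome build. Those notes put clean tags at 18 to 30 nt, but the longest had 44 nt.

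No mature miRNA sequence table was used. Each of 136 conserved miRNAs was keyed from general knowledge by its seed, its last 4 bases and, where needed, its length or single bases, and its reference was the most abundant deposited tag of 20 to 24 nt with that key. A reference was found for 133, which gave 128 miRNAs once those with equal first 18 bases were merged. The rule for members was applied to all. A tag that fitted several miRNAs was left out of all of them (1616 in lactation, 376 in involution). A name thus rests on the key, and a goat sequence that departs from it is missed. The members and lists were chosen with earlier results of these data known.

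Counts were divided by all clean tags. Levels carry exact Poisson, shares Clopper-Pearson and ratios conditional exact intervals, at 95%. The upper limit printed for a count of 0 is a floor of 3 tags, in place of the upper bound of those intervals. Named miRNAs are the members, their other arms, the muscle and smooth muscle lists, the 3 nearest in log2 ratio to each member and the 3 most abundant end forms of each. Items outside this rule were picked after their values had been seen: the single-base changes of miR-1, the miRNAs set beside them, and miR-22. Marker miRNAs come from the cell type lists. Alternatives changed the scaling (median-of-ratios by DESeq2 1.42.0, TMM by edgeR 4.0.16, other totals) or the assignment. Intervals and assignment were tested on simulated data. Python 3.11.15, numpy 2.4.6, scipy 1.17.1, matplotlib 3.10.9 and R 4.3.3 were used.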

Additional observations from a re-analysis of the deposited data

How the results depend on the processing

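Of the alternatives run for the ratios of the 3 miRNAs, none changed a direction. The miR-1 ratio, 0.775, was 0.834 per miRNA tags, 0.521 under median-of-ratios, 0.614 under TMM, 0.875 by identical tags, 0.902 where the whole overlap had to match and 0.810 with A17G tags added, an alternative chosen after seeing the data. The miR-206 ratio, 0.640, was 0.430 and 0.507 under the same scalings and 0.504 by identical tags. The miR-133a ratio, 5.56, was 3.74 with median-of-ratios factors, 15.9 by identical tags, on 2 and 13 tags, and 8.89 for tags that start at base 1; these last 2 were below 10 RPM and so not called. The other 3, 5 and 6 alternatives left the 3 ratios within their counting intervals. Where the whole overlap had to match, the share of shorter miR-1 tags was 37.7% in lactation and 40.9% in involution, since that rule drops the forms with cytosine at base 22. Calls past 2-fold numbered 49 of 116, and 74 at 1.5-fold, 59 by median-of-ratios scaling, 53 by TMM scaling and 54 of 128 without the level limit. Depth limits miR-133a most, at 54 tags in lactation. No paired analysis was possible because each stage had 1 library.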
